A study of Canis lupus familiaris with 58 samples.

Results

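TPX2 is a spindle assembly factor that activates the kinase Aurora A, and its transcript accumulates as cells pass from DNA replication into mitosis. Diffuse large B-cell lymphomas (DLBCL) of lymph node from 32 dogs were ranked by the level of TPX2, and the 10 dogs with the highest values (TPX2-high) were set against the 10 with the lowest (TPX2-low), 20 of the 58 dogs in the series. The 12 dogs between them were kept as a middle group for reference. The other 26 dogs were 7 with marginal zone lymphoma (MZL) of lymph node and 19 sampled by fine needle aspirate with no recorded subtype.

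All dogs were pets brought by their owners for veterinary care, and every tumour was sampled before treatment and typed as B-cell lymphoma with B-cell markers. Total RNA from each dog was measured on 1 canine Affymetrix array, and values are log2 expression after robust multi-array averaging (RMA), so that a difference of 1 is a doubling. Where a gene had several probe sets, the one brightest on average across the 58 arrays stood for it. The labels give no age, breed or treatment given later, and no gene was altered by design. They record an IGHV status (immunoglobulin heavy chain variable genes) of static, ongoing or ND, which is not explained there. Among TPX2-high dogs 7 were static, 2 ongoing and 1 ND, and among TPX2-low dogs 6 were static and 4 ongoing. Each array is a separate dog, so the p-values below measure the spread between dogs.

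Dividing cells copy their DNA once, from origins licensed by the MCM helicase, and then separate the copies on a spindle built by kinesins and supervised by checkpoint kinases. Most of the transcripts for these steps are made in waves, the first driven by E2F factors at the start of replication and a later one by MYB and FOXM1 before mitosis. In lymph nodes the largest bursts of division normally belong to germinal centre B cells, from which DLBCL is thought to arise. In a bulk node sample, fewer cells of a kind and less RNA per cell cannot be told apart, so a higher level here can mean more cycling cells or more transcript in each.

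TPX2 itself is described without a test, because the dogs were chosen by it. In TPX2-high dogs the log2 value ran from 8.72 to 9.66 with a median of 9.08, in the middle group from 8.22 to 8.72 with a median of 8.51, and in TPX2-low dogs from 7.62 to 8.18 with a median of 7.84. The group means were 9.07 ± 0.33 (SD, n = 10) and 7.89 ± 0.18, a 2.26-fold ratio. The borders were close: the last dog inside the high group stood at 8.718 and the first outside at 8.715, and at the lower border the values were 8.22 outside and 8.18 inside. A lower probe set of TPX2, not used for the ranking, had 8.75 ± 0.57 in TPX2-high and 7.70 ± 0.30 in TPX2-low dogs, and its ranges met (7.95 to 9.57 against 7.20 to 8.11). Ranking by that probe set would have kept 6 of the 10 high and 8 of the 10 low dogs. Ranking by the mean of replication licensing genes would have kept 5 and 8, and ranking by the cell cycle gene TOP2A 4 and 6. Under the TOP2A ranking 1 of the 10 low dogs, Dog 25, stood in the high group. TPX2 in the 7 MZL nodes averaged 8.36 ± 0.63 and in the 19 aspirates 8.24 ± 0.69, so both overlapped the range of the DLBCL nodes.

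**Figure D1:**
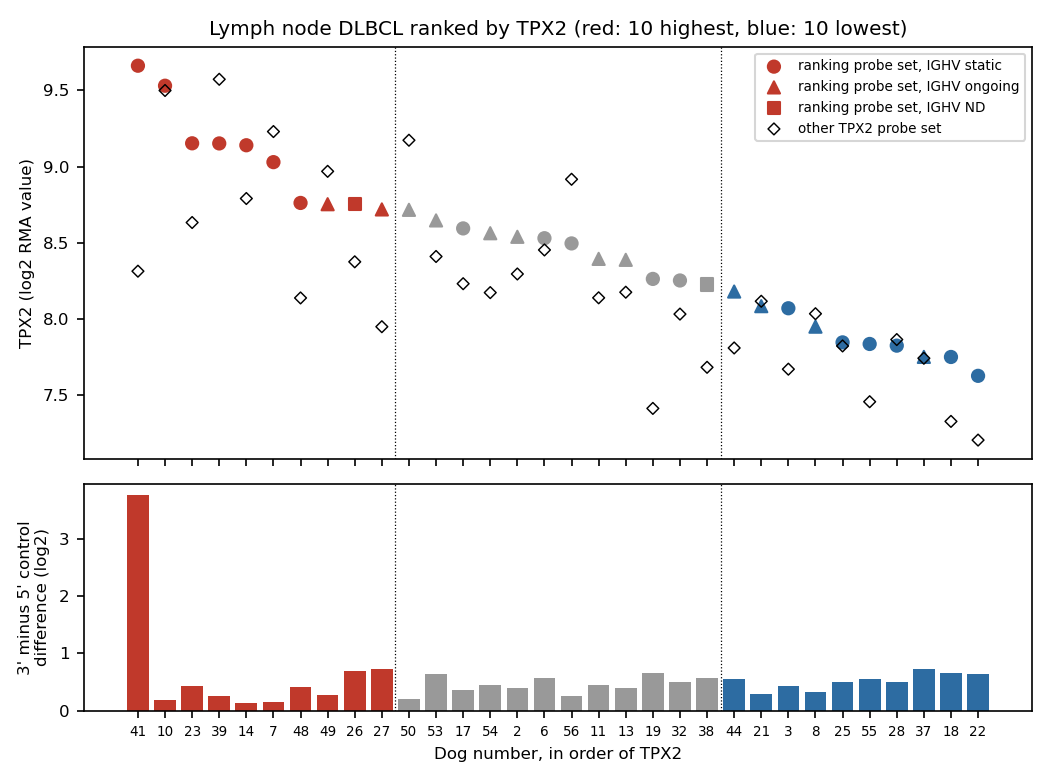
The upper panel plots the log2 TPX2 value of each of the 32 DLBCL nodes in rank order (filled symbols, shaped by IGHV status; red TPX2-high, grey middle, blue TPX2-low) with the other TPX2 probe set as open diamonds, and the lower panel plots the 3' minus 5' control difference of the same arrays. Dog 41, first in the ranking, has a control difference of 3.77 and sits at 8.31 by the other probe set.

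A pair of arrays stood apart and are named here because several results were also computed without them. Dog 41 had the highest TPX2 value and by far the largest 3' minus 5' difference of the control transcripts, which grows as RNA is degraded. Its difference was 3.77, and the next highest among TPX2-high dogs was 0.72. By the mean of all cell cycle genes Dog 41 ranked 4 of 32. The control difference was 0.70 ± 1.10 in TPX2-high and 0.52 ± 0.14 in TPX2-low dogs (two-sided permutation p = 0.959), and 0.36 ± 0.22 (n = 9) in TPX2-high dogs without Dog 41 (exact permutation p = 0.0836). Dog 22, which had the lowest TPX2 value, had a level of MS4A1 (CD20, a B-cell surface antigen) of 6.96, while the other 19 dogs lay between 11.72 and 13.79. Its other B-cell identity and receptor signalling genes ranked between 7 and 21, counted from the lowest of the 32 nodes. CD79A, a signalling chain of the B-cell receptor, was at 8.61 against a median of 8.49 in the other TPX2-low dogs. CD79B was at 10.42 against 10.78, and EBF1, at rank 7, at 9.02 against 9.65. The mean of this list in Dog 22, MS4A1 included, was 9.79, the lowest of the TPX2-low dogs. Dog 22 also had the highest value of all 32 nodes for the cytotoxic lymphocyte genes GZMK (11.26), NKG7 (10.05) and PRF1 (7.27). Of the 13 measured genes of that list, the same held for GZMA, EOMES and NCR3. Counted from the lowest of the 32 nodes, Dog 22 ranked 31 in GZMB, KLRD1 and CCL5. It ranked 29 in CTSW, 26 in NCR1, 14 in TBX21 and 10 in FASLG. In the 22 T-cell genes its ranks ran from 1 (FOXP3) to 32 (CD28, CTLA4 and LAT), and its T-cell mean of 7.98 was the highest of the TPX2-low dogs. The mean of the macrophage list in Dog 22, 9.64, was the highest of the 32 nodes. PAX5, a B-cell transcription factor, lay between 6.90 and 7.40 in all 20 dogs.

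The genes called higher in TPX2-high nodes included spindle, checkpoint, kinetochore, replication and DNA repair genes such as KIF11, TTK, CENPF, CDC6 and EXO1, and fewer genes were called lower. Of 15114 genes tested with limma (Benjamini-Hochberg adjusted p under 0.05), 132 were higher (0.873%) and 18 were lower (0.119%) in TPX2-high nodes. The differences ran from 0.28 to 1.27 for the higher genes and from 0.21 to 0.96 in size for the lower ones. At an unadjusted p under 0.05 there were 1607 genes. In 23 genes, all of them called, every TPX2-high dog lay above every TPX2-low dog (0.152% of genes tested). The reverse held for 1 gene (0.00662%), CELF1, a splicing regulator that was named for this after its values were seen and did not pass (adjusted p = 0.081). Without Dog 41, 93 genes were higher and 10 lower, including 89 of the 132 and 9 of the 18. Without Dog 22 the counts were 85 and 7. Without Dog 18 they were 84 and 6 and without Dog 55 they were 86 and 7, both also TPX2-low dogs.

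TPX2 is itself a spindle gene, and the gene lists were chosen with earlier results of these data known. Higher cell cycle genes are therefore no independent test of the label of fast and slow cycling. TOP2A, a preset gene of cycling cells, was not called between the groups (limma adjusted p = 0.147). Its slope on TPX2 over all 32 nodes passed (limma adjusted p = 0.0067). The comparison covered 250 measured genes of 13 cell cycle lists. Of these, 219 had a higher mean in TPX2-high nodes and the median difference was 0.45, against -0.0034 over all genes tested. The test called 63 of them higher and none lower, so 63 of the 132 higher genes stood in these lists. That is no full count of cell cycle genes, since DLGAP5 and CEP55, in no list, also act in cell division. By the mean of the 250 listed genes per dog, TPX2-high nodes ran from 9.52 to 10.18. Middle nodes ran from 9.20 to 9.72 and TPX2-low nodes from 9.11 to 9.50. The high and low groups did not overlap, although Dog 27, the lowest of the high group at 9.519, and Dog 21, the highest of the low group at 9.504, nearly met. Several middle dogs reached the level of the high group. Without Dog 41 the test called 52 of the 250 genes, and without Dog 22 it called 49.

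**Figure D2:**
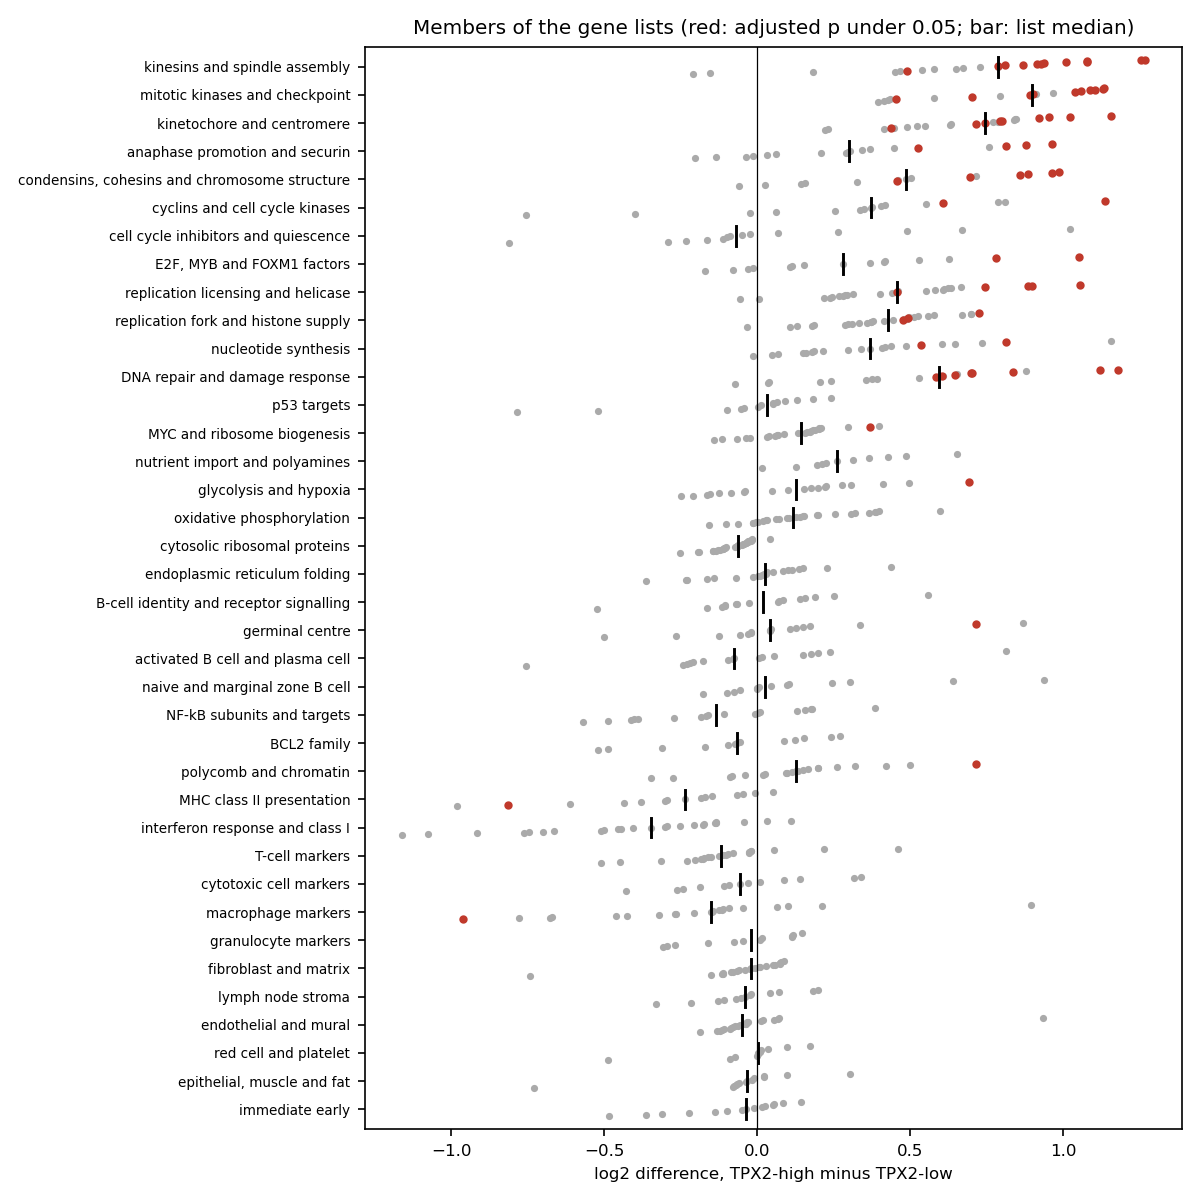
Each point is a gene of the list named at left, placed at its log2 difference, TPX2-high minus TPX2-low (n = 10 and 10), in red where the limma adjusted p was under 0.05; the black bar is the list's median. The upper lists, which hold the spindle, checkpoint and kinetochore genes, are shifted to the right, with medians of 0.78, 0.90 and 0.75. Of the lists of B-cell and other cell genes, interferon response and class I (-0.35), class II presentation (-0.24) and macrophage genes (-0.15) have the lowest medians. The medians of the others run from -0.13 to 0.13.

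Spindle, checkpoint and kinetochore genes had the largest list medians. Of 23 kinesins and spindle assembly genes, 12 were called higher and the median difference was 0.78. KIF11, the motor that pushes the spindle poles apart, ran from 9.67 to 10.90 (median 10.22) in TPX2-high and from 8.46 to 9.72 (median 8.90) in TPX2-low nodes. Its 2.40-fold ratio was the largest of any called gene (log2 difference 1.27 ± 0.17 SE, limma adjusted p = 9.0e-04), with 9 of 10 high dogs above every low dog. ASPM, which organises the spindle poles, was 2.38-fold higher (1.25 ± 0.22, adjusted p = 0.0057). ECT2, which directs cleavage between the daughter cells, was 2.11-fold higher (1.08 ± 0.19, adjusted p = 0.0058). In both genes the extremes of the groups overlapped.

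All 18 measured mitotic kinase and checkpoint genes had a higher mean in TPX2-high nodes, and 10 passed the test (median difference 0.90). The checkpoint kinase TTK rose from 8.32 ± 0.39 to 9.45 ± 0.63 (adjusted p = 0.012), and BUB1B, which holds back anaphase until chromosomes are attached, from 9.65 ± 0.41 to 10.76 ± 0.62 (adjusted p = 0.016). SGO2, a protector of the link between sister chromatids, differed by 1.13 ± 0.20. At the kinetochore, the site on each chromosome where spindle fibres attach, all 23 genes had a higher mean and 9 passed. CENPF was 9.60 to 10.99 (median 10.09) in high and 8.33 to 9.46 (median 8.83) in low nodes. Its groups did not overlap, and the difference was 1.16 ± 0.16 (adjusted p = 9.0e-04). SKA3 and ZWILCH, also parts of this attachment machinery, were higher by 1.02 ± 0.20 and 0.95 ± 0.16.

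The exit from mitosis was represented by 18 genes of the anaphase-promoting complex and its substrates, of which 14 had a higher mean, 4 a lower one, and 4 were called higher. CDC20, which activates the complex, ran from 10.99 to 12.53 in high and from 10.48 to 11.49 in low nodes, and 9 of 10 high dogs exceeded every low dog. FBXO5, an inhibitor of the complex, differed by 0.96 ± 0.19, and ESPL1, the protease separase, by 0.81 ± 0.16. Among 15 condensin, cohesin and chromosome structure genes 6 passed. NCAPG, a condensin subunit, had 10.92 to 12.01 (median 11.41) in high and 10.08 to 10.92 (median 10.52) in low nodes, without overlap, and a difference of 0.96 ± 0.12 (adjusted p = 3.2e-04). All 5 of its probe sets moved in the same direction. The subunits NCAPG2 and NCAPH differed by 0.99 ± 0.18 and 0.88 ± 0.18. TOP2A, the topoisomerase that untangles replicated DNA, was not called between the groups. It ran from 11.64 to 13.12 in high and from 10.81 to 12.43 in low nodes (0.71 ± 0.22, adjusted p = 0.147). Its other probe set, with a mean of 10.41, differed by 1.12. The slope of TOP2A on TPX2 over all 32 nodes was 0.69 ± 0.15 (limma adjusted p = 0.0067).

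**Figure D3:**
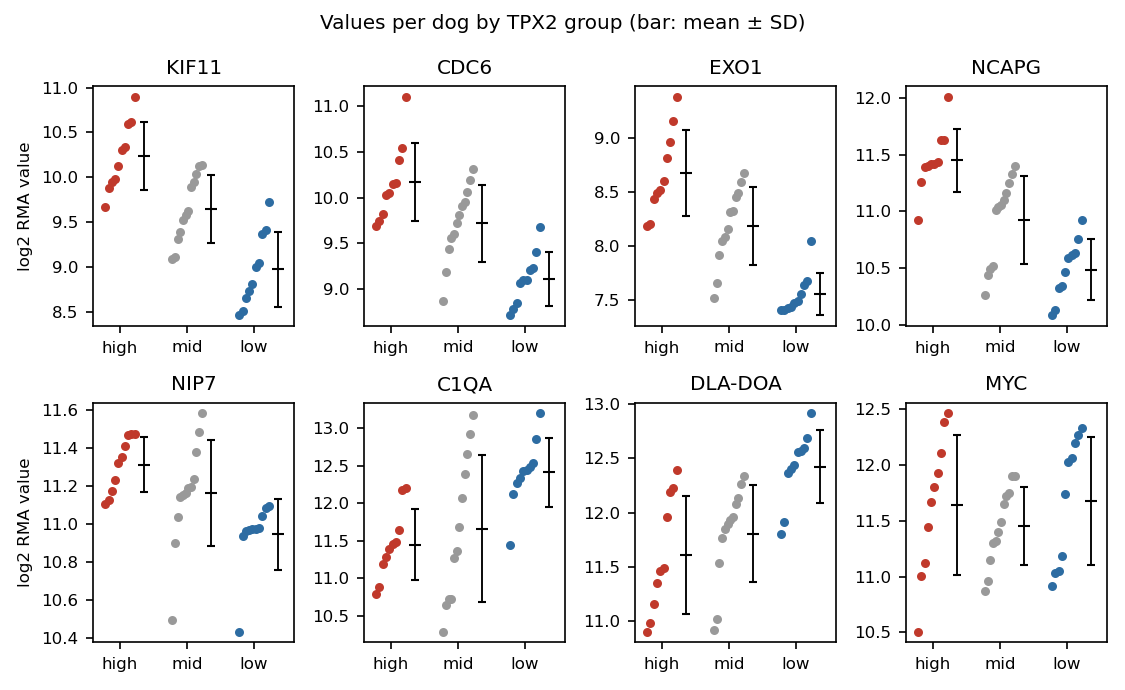
Log2 values of 8 genes in each dog of the TPX2-high (red, n = 10), middle (grey, n = 12) and TPX2-low (blue, n = 10) groups, with mean ± SD beside the points. KIF11, CDC6, EXO1 and NCAPG are high in nearly all TPX2-high dogs. C1QA and DLA-DOA are lower there with overlapping ranges, 5 and 6 of the 10 TPX2-high dogs lying below every TPX2-low dog. MYC covers nearly the same range in TPX2-high and TPX2-low dogs.

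Of 16 cyclins and cell cycle kinases, 13 had a higher mean, and CCNA2 and CDC25A passed. CCNA2, the cyclin of replication and entry to mitosis, was 10.35 to 12.14 (median 11.02) in high and 9.42 to 10.42 (median 10.02) in low nodes (1.14 ± 0.19, adjusted p = 0.0037). CDC25A, a phosphatase that activates cyclin kinases, differed by 0.61 ± 0.15 (adjusted p = 0.048), a call that was lost when any of 17 of the 20 dogs was left out, Dog 41 and Dog 22 among them. No gene of 14 cell cycle inhibitors and quiescence genes passed. CDKN1B (p27) averaged 6.41 ± 0.26 and 6.46 ± 0.29, and CDKN1A (p21) 7.53 ± 0.40 and 7.63 ± 0.46, differences of -0.05 ± 0.12 and -0.10 ± 0.18. Among 15 factors of the E2F, MYB and FOXM1 group, E2F8 (1.05 ± 0.18, adjusted p = 0.0044) and FOXM1 (0.78 ± 0.18, adjusted p = 0.038) were called. E2F8 is a repressor made late in the replication phase, and FOXM1 an activator of mitotic genes. FOXM1 did not pass without Dog 41 (adjusted p = 0.069) and was lost on leaving out 12 of the 20 dogs.

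DNA replication genes had higher means almost throughout, with smaller list medians than the spindle and checkpoint genes. In the licensing and helicase list 25 of 26 genes had a higher mean and 5 passed, with a median of 0.46. CDC6, which loads the helicase onto origins, ran from 9.69 to 11.10 (median 10.10) in high and from 8.72 to 9.68 (median 9.10) in low nodes, without overlap (1.06 ± 0.16, adjusted p = 0.0016). MCM10, needed to start the helicase, was also separated between groups, with 9.23 to 9.99 against 8.12 to 8.91 (0.90 ± 0.11, adjusted p = 3.1e-04). ORC1, a subunit of the complex that marks origins, differed by 0.88 ± 0.18. At the fork 27 of 28 genes had a higher mean and 3 passed: POLA2, a subunit of the polymerase that lays down primers, by 0.72 ± 0.13 with no overlap, CHAF1A, a histone chaperone, by 0.49 ± 0.12, and PCNA, the polymerase clamp, by 0.48 ± 0.11. The calls of CHAF1A (adjusted p = 0.047) and PCNA (adjusted p = 0.035) were close to the threshold and were lost on leaving out 16 and 11 of the 20 dogs. PCNA was at 0.058 without Dog 41.

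Nucleotide supply and repair followed. Among 21 nucleotide synthesis genes, both called genes were subunits of ribonucleotide reductase, which makes the building blocks of DNA: RRM2 went from 11.08 ± 0.36 in low to 11.89 ± 0.34 in high nodes and RRM1 from 11.20 ± 0.18 to 11.74 ± 0.22. Of 20 DNA repair and damage response genes, 19 had a higher mean and 8 passed. EXO1, a nuclease of mismatch repair and break resection, ran from 8.19 to 9.38 (median 8.56) in high and from 7.41 to 8.05 (median 7.48) in low nodes, with no overlap and a 2.17-fold ratio (1.12 ± 0.14, adjusted p = 3.1e-04). FANCM, a helicase of the Fanconi anaemia pathway, differed by 1.18 ± 0.19. None of 14 p53 targets passed, and their median difference was 0.032. BAX, a death-promoting member of both the p53 and BCL2 lists, averaged 9.66 ± 0.58 in high and 10.18 ± 0.31 in low nodes (adjusted p = 0.303).

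Of 137 growth and metabolism genes 2 were called higher (1.46%, against 0.873% of all genes) and none lower. The oncogene MYC, a driver of growth, had nearly the same mean in both groups, 11.64 ± 0.63 and 11.68 ± 0.57, with ranges of 10.51 to 12.46 and 10.92 to 12.33 (difference -0.04 ± 0.25, adjusted p = 0.984). Of 24 MYC and ribosome biogenesis genes, 1 passed. This was NIP7, a factor in making the large ribosomal subunit, at 11.11 to 11.47 in high and 10.43 to 11.09 in low nodes, where the difference of 0.37 ± 0.08 (adjusted p = 0.021) was small but the groups did not overlap. None of 11 nutrient import and polyamine genes passed, although all 11 had a higher mean; the nearest was LDHA, lactate dehydrogenase, at 0.26 ± 0.07 (adjusted p = 0.061). PFKP, a glycolytic phosphofructokinase, was called with 0.69 ± 0.15 (adjusted p = 0.023), the single call among 20 glycolysis genes, and it was lost without Dog 18 or Dog 28. No subunit of oxidative phosphorylation passed of 28, and 22 had a higher mean. The 32 cytosolic ribosomal protein genes showed the opposite sign in 31, with a median of -0.064, and none passed. None of 22 endoplasmic reticulum folding genes passed, with a median of 0.026.

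No defining B-cell gene passed. Of 16 B-cell identity and receptor signalling genes none passed and 8 had a higher mean in each group. CD79A ran from 6.71 to 10.13 in high and from 7.88 to 10.04 in low nodes, a difference of 0.07 ± 0.38. None of the naive and marginal zone, activated B-cell and plasma cell, NF-kB or BCL2 family genes passed, with list medians between -0.13 and 0.026. BCL6, the master repressor of the germinal centre programme, varied widely in both groups (7.45 to 10.28 and 7.75 to 10.35), and the difference was -0.12 ± 0.37. In the germinal centre list and again in the polycomb and chromatin list, the 1 gene called was EZH2, the histone methyltransferase of polycomb complex 2. EZH2 ran from 10.42 to 11.64 (median 10.74) in high and from 9.61 to 10.64 (median 10.10) in low nodes, and 7 of 10 high dogs lay above every low dog (0.71 ± 0.14, adjusted p = 0.016).

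Genes lower in TPX2-high nodes were few and mixed. C1QA, a chain of complement C1q that tissue macrophages make, had the largest difference of the called genes: it was 10.79 to 12.20 (median 11.42) in high and 11.44 to 13.19 (median 12.43) in low nodes, a difference of -0.96 ± 0.20 (adjusted p = 0.017). The middle dogs covered both groups, from 10.29 to 13.17. The other C1q chains were lower in mean but did not pass (C1QC -0.78, adjusted p = 0.35, and C1QB -0.68, adjusted p = 0.58; both named after their values were seen). Of all 22 macrophage genes 18 had a lower mean and the median was -0.15; the list's mean level ran from 8.31 to 8.97 in high and from 8.40 to 9.64 in low nodes. Without Dog 41 the list's median difference was -0.18. In aspirates the median slope of the list on TPX2 had the opposite sign, 0.16, with 14 of 22 genes positive, and none passed. CD14, a monocyte receptor, differed by -0.15 ± 0.17 in nodes. Whether fewer macrophages account for the C1QA value was not tested.

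DLA-DOA, a chain of the class II molecule that restrains peptide loading in B cells, was the other listed gene called lower. It ran from 10.90 to 12.40 (median 11.48) in high and from 11.80 to 12.92 (median 12.50) in low nodes (-0.81 ± 0.19, adjusted p = 0.047). Without Dog 41 the adjusted p was 0.083, and it was lost on leaving out 15 of the 20 dogs. Of 15 class II presentation genes 14 had a lower mean in TPX2-high nodes, with a median of -0.24, and 1 passed. Interferon response and class I genes had the most negative list median, -0.35, with 23 of 25 lower in mean, yet none passed: per-dog means ran from 9.00 to 11.11 in high and from 9.69 to 10.88 in low nodes. Dog 41 had the lowest of these at 9.00. Without Dog 41 the list medians were -0.24 for interferon response and class I genes and -0.16 for class II presentation genes. In aspirates the median slope on TPX2 was -0.0083 for interferon response and class I genes, and 12 of 25 were positive. It was -0.051 for class II presentation genes, with 4 of 15 positive, against -0.025 over all genes. No gene of either list passed there.

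Of the 18 lower genes 16 stood in no list, and those with a gene name and the largest differences were TSC22D1 (-0.94 ± 0.22), ETFRF1 (-0.67 ± 0.15), TTBK2 (-0.66 ± 0.12), MICAL2 (-0.61 ± 0.14), CCDC28A (-0.61 ± 0.14), UFC1 (-0.54 ± 0.12), KBTBD2 (-0.51 ± 0.11), SERHL2 (-0.46 ± 0.10), LAPTM4A (-0.41 ± 0.07) and HJV (-0.40 ± 0.10). TSC22D1 encodes a transcription regulator induced by TGF-beta. TTBK2, a kinase that starts cilium formation, was the most evenly separated: 9 of 10 high dogs (8.01 to 9.06) lay below every low dog (8.87 to 9.47; adjusted p = 0.0075). In LAPTM4A, a lysosomal membrane protein, 8 of 10 high dogs lay below every low dog (adjusted p = 0.0076). Together with C1QA these were the 3 of 12 named lower genes whose call held on leaving out each of the 20 dogs, while 35 of the 43 named higher genes kept theirs. With a slope on TPX2 over all 32 nodes TTBK2 and LAPTM4A passed again, but C1QA (adjusted p = 0.062), KBTBD2 (0.150) and HJV (0.066) did not. SERHL2 and HJV had 3 of 5 and 1 of 3 probe sets with the sign given, and TTBK2 2 of 3. For TTBK2 the other probe sets, with means of 8.23 and 6.99 against 8.70 for that used, differed by -0.032 and 0.12. Those of MICAL2 differed by -0.11, -0.048 and -0.040, and that of KBTBD2 by -0.15. In TSC22D1 the others differed by -0.40, -0.50 and -0.31, and in CCDC28A, UFC1 and LAPTM4A by -0.55, -0.51 and -0.32.

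Of the 132 higher genes 66 stood in no list. Those named here are the 10 with a gene name and the largest differences. DLGAP5, which bundles spindle fibres, ran from 10.74 to 12.07 in high and from 9.39 to 10.42 in low nodes (1.24 ± 0.18, adjusted p = 0.0013). CEP55, needed for the last step of cell separation, ran from 9.09 to 10.75 against 8.01 to 8.86 (1.17 ± 0.16, adjusted p = 9.0e-04). Neither overlapped between groups, nor did DIAPH3, a formin that builds actin filaments (1.06 ± 0.16), or ATAD5, which unloads the PCNA clamp (1.02 ± 0.14). C4H5orf34, an open reading frame with no role stated here, had the smallest p of all genes tested: it ran from 7.85 to 8.60 (median 8.18) in high and from 6.45 to 7.56 (median 7.15) in low nodes (1.08 ± 0.12, adjusted p = 3.1e-04). SHCBP1 (1.10 ± 0.17), STIL, a centriole duplication factor (1.04 ± 0.18), GTSE1 (1.00 ± 0.22) and CKAP2L (0.97 ± 0.18) were also higher, as was DEPDC1 (1.24 ± 0.29), whose other probe set had the opposite sign. The calls of DEPDC1 and GTSE1 were lost on leaving out 15 and 10 of the 20 dogs, Dog 41 and Dog 22 included.

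Markers of the other cells of a node were measured beside these results. Of 22 T-cell genes 19 had a lower mean in TPX2-high nodes, none passed, and the list's mean level was 7.41 to 7.81 (median 7.64) in high and 7.56 to 7.98 (median 7.71) in low nodes. CD3E, a chain of the T-cell receptor complex, differed by -0.02 ± 0.09. With the T-cell mean as a covariate the test called 49 genes higher and 3 lower, all of them among the 132 and 18, and 31 of the 250 cell cycle genes; their median difference was then 0.44 against 0.45. COL1A1, a collagen of fibroblasts, ran from 5.11 to 8.78 in high and from 4.62 to 8.96 in low nodes. No gene of the cytotoxic, granulocyte, fibroblast, stromal, endothelial, red cell, epithelial or immediate early lists passed, and their medians lay between -0.056 and 0.003. The part of these cells in the counts was otherwise not tested.

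The 19 fine needle aspirates were not among the ranked dogs, although their arrays counted in the mean that chose the TPX2 probe set. They allowed the same genes to be set against TPX2 in other animals. In a limma fit of each gene on the TPX2 value, 516 genes had a positive slope (3.41% of 15114) and 127 a negative one (0.84%) at an adjusted p under 0.05. All 132 genes higher in TPX2-high nodes had a positive slope in aspirates, where 41.7% of all genes did, and 97 of them passed, which is 73.5% of the node list and 18.8% of the aspirate list. Their median slope was 0.52 per log2 unit of TPX2, against -0.025 over all genes. Of the 18 lower genes 16 had a negative slope, where 58.3% of all genes did, and 2 passed, 11.1% of the node list and 1.57% of the aspirate list. Among the 250 cell cycle genes 111 had a slope that passed, all positive.

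**Figure D4:**
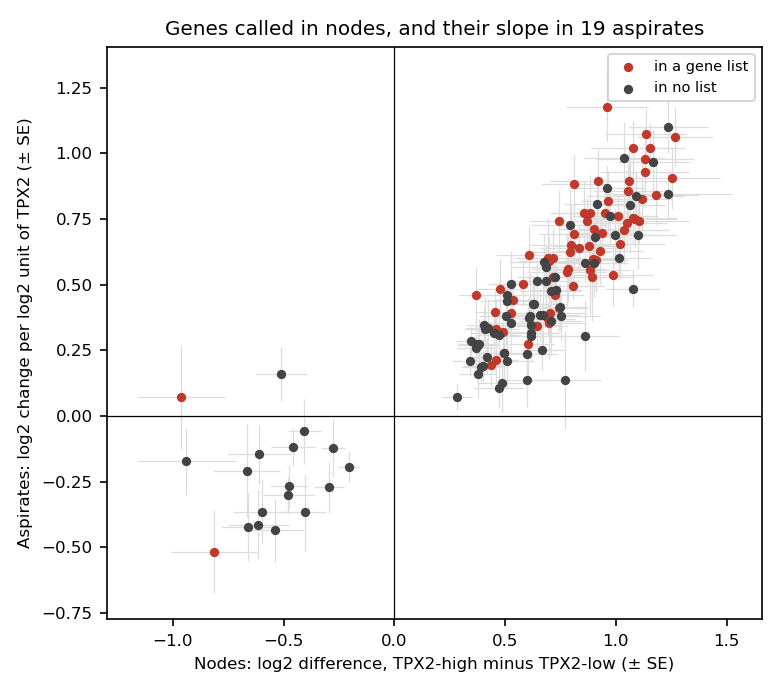
Each point is a gene called in nodes, with its log2 difference between TPX2-high and TPX2-low nodes (horizontal, ± SE, n = 20 dogs) and its change per log2 unit of TPX2 in 19 aspirates (vertical, ± SE); red genes belong to a list and dark grey genes to none. The 132 higher genes all lie in the upper right, while 2 of the 18 lower genes, C1QA and KBTBD2, lie above 0.

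The same genes can be read one by one. KIF11 changed by 1.06 ± 0.11 per log2 unit of TPX2 in aspirates (adjusted p = 1.2e-05), CENPF by 1.02 ± 0.10 (adjusted p = 6.1e-06) and EZH2 by 0.53 ± 0.10 (adjusted p = 0.0042). C1QA had a slope of 0.07 ± 0.20 there (adjusted p = 0.869) and DLA-DOA one of -0.52 ± 0.16 (adjusted p = 0.069). UFC1, an enzyme that attaches the small modifier UFM1, was the named lower gene that passed in aspirates, at -0.44 ± 0.12 (adjusted p = 0.044). MYC, with nearly equal means in the node groups, had a slope of 0.76 ± 0.21 in aspirates (adjusted p = 0.046), and 8 of 11 nutrient import and polyamine genes passed there with a positive slope. A fit over nodes and aspirates with an interaction term called no gene as differing in slope (smallest limma adjusted p = 0.996). This held for MYC and C1QA too. The unadjusted p was under 0.05 in 658 of the 15114 genes, in 14 of the 132 higher and in 4 of the 18 lower ones. Over the 32 nodes the slope was -0.11 ± 0.17 for MYC and -0.77 ± 0.23 for C1QA. The lack of a call therefore does not show that the slopes were equal.

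IGHV status was static in 7 of 9 TPX2-high dogs with a known status (77.8%) and in 6 of 10 TPX2-low dogs (60.0%), a difference of 17.8 percentage points that did not pass (two-sided Fisher's exact p = 0.629). Over all 30 DLBCL nodes with a status, TPX2 averaged 8.53 ± 0.64 in 18 static and 8.39 ± 0.33 in 12 ongoing dogs (two-sided permutation p = 0.493). With IGHV status as a covariate, 84 genes were higher and 9 lower, and 50 cell cycle genes were called.

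Outcome was recorded for 10 TPX2-high and 9 TPX2-low dogs, since Dog 22 had none. A label of 1 was taken to mark an event and 0 a censored dog. The unit of time is not given in the labels. For progression-free survival, 8 of 10 TPX2-high and 8 of 9 TPX2-low dogs had an event. The Kaplan-Meier medians were 178 and 174. The hazard ratio of high over low was 1.30 (95% interval 0.477 to 3.54; two-sided exact permutation p = 0.614 over 92378 assignments). For overall survival, 7 of 10 and 7 of 9 dogs had an event, the medians were 206 and 259, and the hazard ratio was 1.30 (0.446 to 3.78; exact permutation p = 0.638). Both intervals span ratios well to each side of 1, so neither a higher nor a lower hazard could be told from no difference with these dogs. TPX2 was also taken as a number over 30 DLBCL dogs with an outcome. The hazard ratio per log2 unit was 1.39 (0.528 to 3.67) for progression-free and 1.80 (0.682 to 4.76) for overall survival (permutation p = 0.512 and 0.241).

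**Figure D5:**
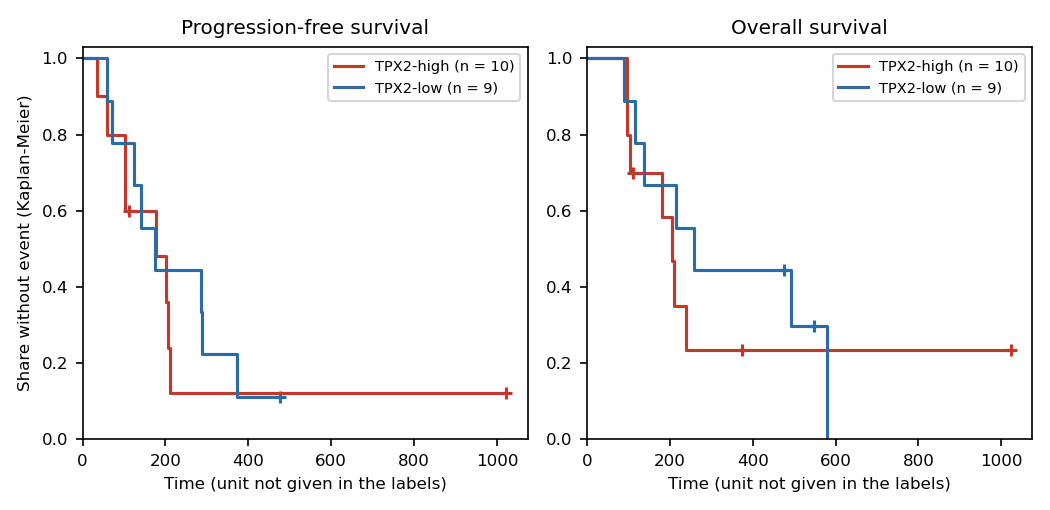
Kaplan-Meier curves of progression-free (left) and overall survival (right) for TPX2-high (red, n = 10) and TPX2-low dogs (blue, n = 9), with ticks for censored dogs; the vertical axis is the share without an event and the horizontal axis is time in the unit of the labels, which is not given. The curves cross, and the longest follow-up, 1023, belongs to a censored TPX2-high dog.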

How the data were processed

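Per the labels' protocols, Trizol-extracted total RNA was amplified with biotin labelling for Affymetrix arrays. The deposited values, for 43035 probe sets per array, are on a log2 scale as read from the values, and come from Affymetrix Expression Console with RMA per the submitters' processing notes; versions and the genome build are not given in the sources used here, and no coordinates are printed. Array medians lay between 7.08 and 7.20, and the number of arrays limits the precision. By the annotation of the array, 29254 probe sets had 1 symbol, 439 had several and named no gene, 13231 had none, and 111 were controls. This gave 15115 genes, 8254 with more than 1 probe set, of which all but TPX2 were tested with no filter on level.

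Groups were compared with limma 3.58.1 in R 4.3.3 (lmFit, eBayes, two-sided, Benjamini-Hochberg over all genes, threshold 0.05) without covariates. Single values were compared by exact or 100000-draw permutation, status by Fisher's exact test, and hazard ratios came from survival 3.8.3. Figures used matplotlib 3.10.9 in Python 3.11.15.

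The members and the 38 gene lists were chosen with earlier results of these data known. Genes named were 12 preset ones (MKI67 is not among the genes named by the annotation used here), up to 3 called genes of each list with the largest difference or otherwise the one of smallest p, and up to 10 called genes each way in no list, without LOC symbols. Alternatives changed the test, the probe set, a level filter, the group sizes, the ranking gene, covariates, array weights and the dogs.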

Additional observations from a re-analysis of the deposited data

Results flagged for a closer look

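In 16 of the 170 sets of 10 values looked at (85 genes in each group), the highest or lowest dog stood apart from the others by a gap that was large against the range of the group (Dixon's test). Chance alone gives about 1 in 20 such sets, and the members of a pattern below share dogs.

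Dog 10 stood above the other TPX2-high dogs in CENPF (10.99, next 10.23), NCAPG2 (11.36, next 10.65), RAD51AP1 (9.94, next 9.14) and CEP55 (10.75, next 9.76). It also had the highest mean of all cell cycle genes, 10.18. Dog 21 stood above the other TPX2-low dogs in FOXM1 (9.35, next 8.67), RRM2 (11.94, next 11.31) and EXO1 (8.05, next 7.68), and its cell cycle mean of 9.504 was the highest of that group. Without Dog 21, 120 of the 132 higher genes were called again.

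Dog 22 stood apart with the lowest MS4A1 of TPX2-low dogs (6.96, next 11.72) and the highest PRF1, the pore-forming protein of cytotoxic cells (7.27, next 6.57). The difference in MS4A1 was 0.56 ± 0.59 with this dog and -0.02 without it.

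The remaining flags were single. CD3E was lowest in TPX2-high Dog 39 (8.82, next 9.21), LDHA in TPX2-high Dog 14 (12.90, next 13.18), NIP7 in TPX2-low Dog 18 (10.43, next 10.94) and STAT2, an interferon signal carrier, in TPX2-low Dog 25 (10.12, next 10.27). PLCG2, a signalling enzyme of the B-cell receptor, was highest in TPX2-low Dog 37 (11.83, next 11.40), KRT18, an epithelial keratin, in TPX2-high Dog 23 (9.86, next 7.64) and CCDC28A in TPX2-high Dog 27 (10.20, next 9.71).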

How the results depend on the processing

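Against 132 higher and 18 lower genes, the counts were 236 and 52 with 16 against 16 dogs, 391 and 83 with a slope over 32 nodes, 357 and 74 ranked by licensing genes, 694 and 745 ranked by TOP2A, 524 and 143 ranked by the other TPX2 probe set, 84 and 9 with IGHV status, 49 and 3 with the T-cell mean, and 221 and 45 with array weights. The lower count was 28 by rank-sum test and 10 without Dog 41. Leaving out each dog gave 84 to 191 higher and 6 to 27 lower genes; the lower count was 11 or less without Dogs 3, 8, 10, 18, 22, 23, 28, 37, 39, 41, 49 or 55. Of the 132 genes 80 and of the 18 genes 7 were called again under the TOP2A ranking, which was chosen after seeing the data, as was the other probe set. In aspirates, 6 against 6 dogs gave 230 positive and 27 negative genes. The causes were not tested.

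Static status differed by -20.0 points ranked by licensing genes, -6.67 by TOP2A and -7.78 by the other probe set. The hazard ratio of progression-free survival was 0.886 ranked by licensing genes. That of overall survival was 2.66 ranked by TOP2A (0.875 to 8.07, exact permutation p = 0.0844) against 1.30. The control difference was -0.156 without Dog 41. Of 55 named called genes KBTBD2 (0.054) and HJV (0.010) changed sign ranked by TOP2A, and 30 no longer passed with the T-cell mean.

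Some uncalled genes changed sign, of which KRT18 (-0.73), MS4A1 (0.56), ZFP36 (-0.36) and PLCG2 (0.25) were not near 0 in the main comparison. CD3E was 0.021 and COL1A1 0.0065 with 8 against 8. Ranked by licensing genes BCL6 was 0.047 and CD3E 0.0078. Ranked by TOP2A BCL6 was 0.31, CDKN1B 0.061, PLCG2 -0.014, KRT18 0.087 and ZFP36 0.30. By the other probe set CD3E was 0.021. With the T-cell mean MYC was 0.11, MS4A1 -0.11, CD3E 0.058 and COL1A1 0.49, and with array weights MYC was 0.11, CDKN1B 0.044 and COL1A1 0.13. Leaving out each dog gave MYC -0.13 to 0.089, BCL6 -0.31 to 0.056, CDKN1A -0.17 to 0.016, CDKN1B -0.10 to 0.0034, CD79A -0.080 to 0.30, MS4A1 -0.016 to 0.71, CD3E -0.048 to 0.036 and COL1A1 -0.36 to 0.12. A planned ranking by MKI67 was not run. The design holds no replicate arrays of a dog.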

Other observations

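Among the higher genes in no list, 3 small groups were noticed after the values were seen, so their counts are descriptions with no test of the group. The enzymes CS (citrate synthase), IDH3A (isocitrate dehydrogenase) and FH (fumarate hydratase) of the tricarboxylic acid cycle were higher in TPX2-high nodes by 0.50, 0.67 and 0.53 (limma adjusted p = 0.047, 0.047 and 0.012). Without Dog 41 IDH3A no longer passed (adjusted p = 0.083). Over all genes 0.873% were called higher in nodes and 3.41% had a positive slope that passed in aspirates, the shares against which the counts here are to be read. Of 14 measured genes of that cycle 12 had a higher mean and the median difference was 0.26. In aspirates 11 of the 14 had a positive slope on TPX2 and 1 passed, none of these 3.

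The nuclear pore genes NUP160, NUP205 and NUP93 were higher by 0.68, 0.49 and 0.38 (limma adjusted p = 0.031, 0.047 and 0.047), among 26 measured nucleoporins of which 25 had a higher mean (median 0.21). Without Dog 41 NUP205 and NUP93 no longer passed (both 0.083). In aspirates 6 of the 26 passed with a positive slope, NUP160 at 0.51 (limma adjusted p = 0.0042) and NUP93 at 0.27 (adjusted p = 0.042) among them. NUP205 did not pass there (0.13, adjusted p = 0.556). The chaperone genes CCT4, a chaperonin subunit, and STIP1 and FKBP4, partners of HSP90, were higher by 0.42, 0.37 and 0.61 (limma adjusted p = 0.012, 0.037 and 0.047). Without Dog 41 STIP1 (0.069) and FKBP4 (0.083) no longer passed. All 18 measured genes of the chaperonin and HSP90 group had a higher mean in TPX2-high nodes (median 0.25), and all 18 a positive slope in aspirates, where 5 passed. CCT4, STIP1 and FKBP4 were not among those 5 (limma adjusted p = 0.076, 0.054 and 0.173 in aspirates).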
